A study of Homo sapiens with 18 samples.

Results

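The splicing of 10 genes of the MYC and MAX network was followed in SHEP.tet21n cells: MAX, MXI1, MXD1, MXD3, MXD4, MNT, MGA, MLX, MLXIP and BIN1. An intron was assigned to a gene when at least 1 of its splice sites lay on an exon boundary of that gene in the GENCODE v44 annotation (hg38), which gave 181 of the 233650 introns in the series. SHEP.tet21n is a human neuroblastoma line engineered to carry a MYCN transgene that doxycycline (Dox) switches off, so all results come from 1 line and an ectopic MYCN. The 18 libraries fell into 6 groups of 3. Cells given vehicle (DMSO, MYCN+) or 2 µg/mL Dox (MYCN-) received a control siRNA (SNRPD3+) or 1 of 2 siRNAs against SNRPD3 (SNRPD3-, siRNA #1 or siRNA #2), and MYCN-/SNRPD3+ is called wildtype. SNRPD3 encodes a core Sm protein of the spliceosome. Every group carried the transgene and was transfected, and Dox itself was given only to the MYCN- groups, so an effect of Dox and an effect of MYCN repression cannot be told apart.

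MYC family proteins, MYCN included, bind DNA as heterodimers with MAX, a small basic helix-loop-helix leucine zipper protein. MAX also pairs with the MXD proteins (MXD1, MXI1, MXD3 and MXD4), with MNT and with the very large MGA, and these partners repress the E-box genes that MYC activates. MLX is a related dimer partner that pairs separately with some MXD proteins, with MNT or with the glucose-sensing factor MLXIP (MondoA). BIN1 is a membrane-bending adaptor whose nuclear forms bind MYC through a region encoded by an alternative exon. Alternative exons in these genes decide which partner form is made, and the question put to the data was whether their use moved with MYCN, with loss of SNRPD3, or with both.

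The measured quantity was PSI, the percentage that 1 intron takes of all split reads in its cluster, a cluster being the introns that share splice sites. PSI carries no information on how much RNA a gene makes, so the levels of MYCN and SNRPD3 could not be checked here, and read depth is unknown. The deposited PSI does not reach 0, and many low values lie near 0.1% or below. They are printed as they stand. Replicates of a group correlated at 0.847 to 0.871 (Pearson, log2 odds of PSI over introns).

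Libraries also deviated from their group means along a shared axis, the first principal component of those deviations. It held 10.1% of the within-group variance over 152722 introns, and wildtype replicate 3, MYCN-/SNRPD3- siRNA #1 replicate 3 and MYCN+/SNRPD3+ replicate 1 lay at its upper end. Of the 115 network introns tested, 15 (13%) followed it with an absolute correlation over 0.7, against 8.21% of all introns. MLXIP held 8 of these 15, and the strongest was MLXIP intron 13 (r = 0.949). The correlations are descriptions, since these libraries and introns also defined the axis.

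The 181 introns were spread unevenly over the genes. MGA had 40 introns, MLXIP 30, BIN1 21, MXD3 19, MXD4 18, MXI1 16, MNT 12, MLX 10, MXD1 8 and MAX 7. Of these, 112 joined annotated exons and 69 used an unannotated site or pairing of sites. All 69 unannotated introns began with GT and ended with AG, as did 110 of the 112 annotated ones. The 115 introns whose PSI averaged between 1% and 99% were tested.

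With MYCN expressed against repressed, over all siRNAs (9 libraries against 9), only 2 network introns passed the test (limma, Benjamini-Hochberg adjusted p under 0.05 over all introns). Both were junctions of MXD-family genes, and both were lower with MYCN. One joined an alternative 5′ splice site of MXI1, the end of a 21-nt first exon in MXI1-209 and perhaps of other first exons, to exon 2. The other left an unannotated 5′ splice site in intron 2 of MXD1. Over the whole series 1.23% of introns were called in this comparison, so 2 of 115 lay close to the background. At an unadjusted p under 0.05 stood 17 of the 115 (14.8%), against 11.7% of all introns. The median absolute difference was 1.18 percentage points for the network and 1.21 for all introns, and 53 differences were upward and 62 downward.

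SNRPD3 knockdown over both MYCN states (12 libraries against 6) gave 0 called network introns in limma, and 0.0242% of all introns were called. At an unadjusted p under 0.05 stood 4 network introns (3.48%), against 7.8% of all introns. The smallest p was that of a MNT junction (adjusted p = 0.360). The interaction of MYCN and knockdown gave 0 calls, where 0.0177% of all introns were called, and 5 at an unadjusted p under 0.05 (4.35%, against 3.98% of all). MYCN alone, MYCN+/SNRPD3+ against wildtype, gave 0 calls in limma, where 0.0543% of all introns were called, and 10 at an unadjusted p under 0.05 (8.7%, against 6.19% of all).

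The remaining pairwise comparisons were alike in giving 0 calls by limma. With MYCN repressed, siRNA #1 gave 6 introns at an unadjusted p under 0.05 (5.22%, against 4.54% of all introns) and siRNA #2 gave 9 (7.83%, against 4.69%). The shares of all introns called there were 0.0105% and 0.0151%. With MYCN expressed, siRNA #1 gave 5 (4.35%, against 7.25%) and siRNA #2 gave 4 (3.48%, against 6.17%), and the shares called over all introns were 0.0144% and 0.0164%. Against wildtype, MYCN with siRNA #1 gave 14 (12.2%, against 10.4%) and MYCN with siRNA #2 gave 9 (7.83%, against 9.19%), with 0.278% and 0.11% of all introns called. The smallest adjusted p of a network intron in these last comparisons was 0.0834 with siRNA #1 and 0.116 with siRNA #2. The comparisons share control libraries, so they do not count as separate evidence. Introns of 1 cluster are shares of the same whole, so these counts can hold a splice choice more than once. With MYCN repressed, the 6 introns of siRNA #1 were pairs of MLX and MXD3 junctions moving in opposite directions. The counts over all introns were made the same way.

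**Figure D1:**
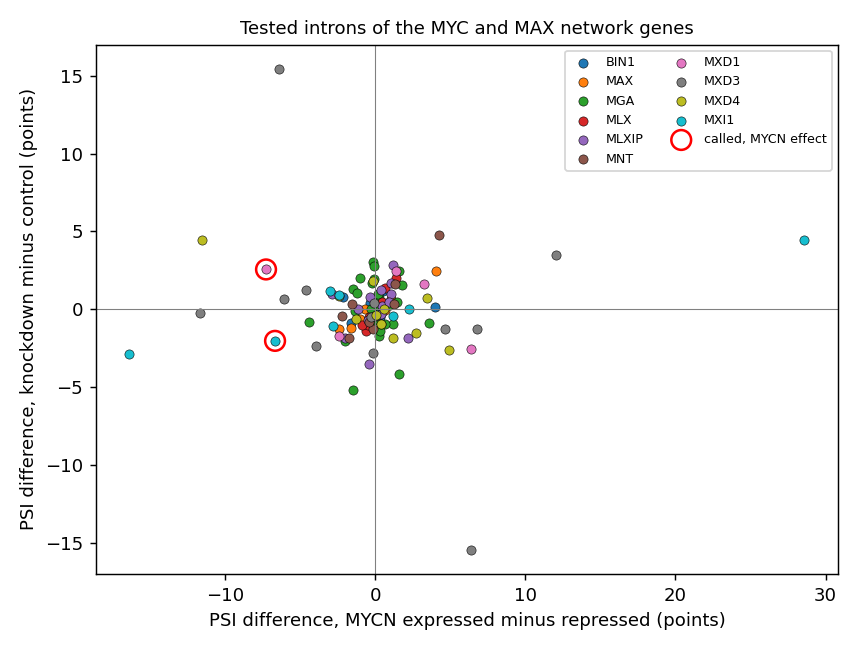
PSI difference of each of the 115 tested network introns for MYCN expressed minus repressed (x axis, percentage points, 9 libraries against 9) and for SNRPD3 knockdown minus control (y axis, percentage points, 12 against 6), coloured by gene, with the 2 called introns ringed. Most introns lie near the origin, while the MXI1 distal first exon stands at +28.6 on the x axis and the last intron of MXD3 at 15.4 above and below 0 on the y axis.

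MXI1 (chr10:110207605-110287365, ENSG00000119950.21) is a MAX partner that antagonises MYC, and it is made from alternative first exons that give the protein different N-termini. The first exons listed below were all spliced to the same exon 2 at 110228189, so their junctions formed a single cluster. PSI reads out the choice among their 5′ splice sites. Some of these sites lie close together, so their junctions need not mark separate starts. A further annotated start at 110210231 (MXI1-203) had no junction in this cluster. The distal exon ends at 110208082 and belongs to MXI1-202, the MANE Select transcript with 295 codons. The proximal exon ends at 110226283 and belongs to MXI1-201, with 228 codons. Minor exons end at 110227118 (MXI1-215), 110227377 (MXI1-217), 110227386 (MXI1-209) and 110227398 (MXI1-227). The last 2 transcripts are annotated as targets of nonsense-mediated decay. Each minor end is labelled with the first matching transcript by name, so other transcripts may share it. The 5′ splice sites are shown because they are what distinguishes these junctions, with 10 exon bases, then the first bases of the intron in capitals (GT), then 8 further intron bases, plus strand, hg38.
Distal, 110208082: gaaaacaaaaGTaagtttgg
Proximal, 110226283: cgggagcgagGTaatggctg
Minor, 110227118: gagggcagggGTgcgcacgt
Minor, 110227377: tgtgtgagagGTcgcgcagg
Minor, 110227386: ggtcgcgcagGTgctggggg
Minor, 110227398: gctgggggagGTgcgagggt

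The distal exon took more of the MXI1 cluster when MYCN was expressed, but the MYCN- libraries scattered widely. Its PSI was 12.3%, 34% and 74.7% in the wildtype replicates, 31.3%, 27.5% and 79.8% with siRNA #1 and 58.8%, 48.8% and 34.1% with siRNA #2. With MYCN it was 81.8%, 59.0% and 73.7% with the control siRNA, 80.4%, 82.7% and 71.3% with siRNA #1 and 70.0%, 74.3% and 65.3% with siRNA #2. The lowest MYCN+ library stood at 59.0%, and 7 of the 9 MYCN- libraries lay below it, while wildtype replicate 3 and siRNA #1 replicate 3 lay within the MYCN+ range.

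Over the MYCN states the distal junction went from 44.6% ± 22.6 to 73.2% ± 7.87 (SD, n = 9 each), a difference of 28.6 points, the widest of all tested network introns. It did not pass the test across all introns (limma, 1.81 on the log2 odds scale, adjusted p = 0.175). The same replicate 3 libraries of the MYCN- groups were at the upper end of the shared library axis, and this junction had r = 0.687 with it. The part of that axis in the result was not tested. Adding the axis to the fit left the junction uncalled, but the axis is made of deviations from group means. That fit can change the spread and not the difference itself.

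The proximal junction went the other way, from 40.7% ± 20.3 without MYCN to 24.4% ± 6.21 with it (SD, n = 9 each), and the 2 sets overlapped. The difference of -16.4 points did not pass the test (limma, adjusted p = 0.528). With knockdown neither main junction passed the test, with +4.46 points for the distal and -2.86 for the proximal exon (limma, adjusted p = 0.973 and 0.9897).

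**Figure D2:**
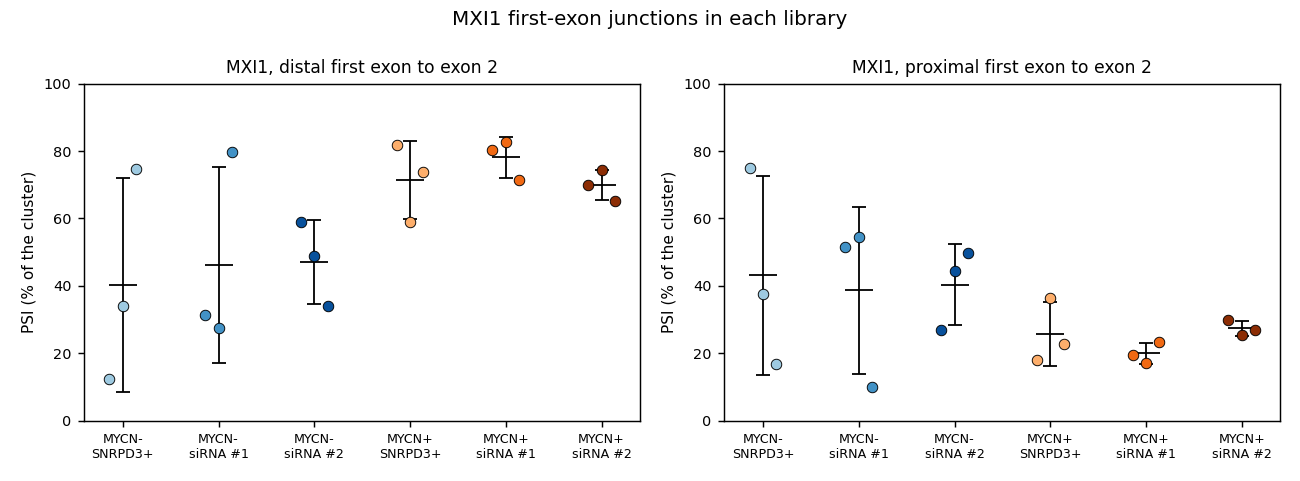
PSI (% of the cluster) of the MXI1 distal (left) and proximal (right) first-exon junctions in the 18 libraries, by group, with the group mean (bar) and SD of 3 replicates. The MYCN+ libraries lie between 59.0% and 82.7% for the distal exon, and the MYCN- libraries between 12.3% and 79.8%.

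The called MXI1 junction, chr10:110227386-110228189, was a minor one. Its PSI in wildtype was 12.4%, 6.33% and 8.18%, with siRNA #1 alone 5.88%, 6.17% and 9.87%, and with siRNA #2 alone 0.179%, 0.128% and 15.8%. In the 9 MYCN+ libraries the lowest was 0.0628%, the median 0.0753% and the highest 4.28%. Only MYCN+/SNRPD3+ replicate 2 stood above the other MYCN+ libraries, and 2 MYCN- libraries (0.179% and 0.128%) lay below it, so the sets overlapped. The other MYCN+ values and these 2 lie near the floor of the deposited PSI. With depth unknown, absence and few reads cannot be told apart there. The mean fell from 7.21% ± 5.13 to 0.541% ± 1.4 (SD, n = 9 each), a difference of -6.67 points and -2.34 ± 0.52 (SE) on the log2 odds scale (limma, adjusted p = 0.0476).

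This call was marginal. It held in 4 of 18 fits that left out 1 library each, those without MYCN+/SNRPD3+ replicate 2 and without each replicate of MYCN-/SNRPD3- siRNA #2, and without any of the other 14 libraries its adjusted p (limma) lay between 0.0747 and 0.0936. It was also lost with an offset of 0.05 (adjusted p = 0.0722), without transformation (0.150), with no filter (0.0570) and with a trended, robust variance (0.0552). Because PSI is a share, a smaller minor junction and a larger distal junction are parts of the same 100% and are not independent. The neighbouring minor junctions from 110227377 and 110227398 were also lower with MYCN, by 2.83 and 3.01 points, without passing the test (limma, adjusted p = 0.508 and 0.437).

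The promoters ahead of the main first exons are given because first-exon choice follows from where transcription starts. They are the 250 bases before the start in RefSeq (GRCh38.p14), plus strand, chr10:110207355-110207604 for the distal and chr10:110225746-110225995 for the proximal exon.
Distal promoter: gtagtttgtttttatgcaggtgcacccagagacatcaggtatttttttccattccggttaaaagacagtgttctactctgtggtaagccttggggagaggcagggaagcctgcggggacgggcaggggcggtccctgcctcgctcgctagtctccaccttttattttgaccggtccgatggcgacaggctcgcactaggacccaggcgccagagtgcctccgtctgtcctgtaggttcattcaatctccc
Proximal promoter: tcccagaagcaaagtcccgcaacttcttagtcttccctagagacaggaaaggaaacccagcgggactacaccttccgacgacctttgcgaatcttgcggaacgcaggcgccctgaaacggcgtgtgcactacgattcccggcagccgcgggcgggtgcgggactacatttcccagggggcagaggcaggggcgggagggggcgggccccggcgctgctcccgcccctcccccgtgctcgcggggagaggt
The distal window was 55.6% G and C and the proximal one 66.8%. Neither held the canonical E-box CACGTG, which reads the same on both strands and occurred in 6.34% of 35116 RefSeq windows of this length. It was found in 3 of the 15 windows of network genes, 1 each of MXD4, MNT and MLX, none of which had a called intron.

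MXD1 (chr2:69897688-69942945, ENSG00000059728.11), also known as MAD1, is the founding MXD repressor and rises as cells leave the cell cycle. Its annotated intron 2 ran from 69916220 to 69921736 and took 70.5% to 99.8% of its cluster. The called junction ended at the same acceptor but began at an unannotated donor inside the intron. A second unannotated donor lay just after the annotated one. The sites are printed as for MXI1, plus strand.
Annotated, 69916220: gcagtagcagGTaatttggt
Unannotated, 69916228: aggtaatttgGTaaatactt
Called, 69918181: ttgaactgagGTaaaggata

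The called junction, chr2:69918181-69921736, was at 6.07%, 0.123% and 5.76% in wildtype, at 6.65%, 0.168% and 0.0711% with siRNA #1 alone and at 23.6%, 19.0% and 5.24% with siRNA #2 alone. All 9 MYCN+ libraries lay between 0.0918% and 0.190%. So 6 of 9 MYCN- libraries were above every MYCN+ library and the other 3 were within or below their range. The MYCN+ values and those 3 lie near the floor of the deposited PSI. With depth unknown, absence and few reads cannot be told apart there, and their order and spread are not read further. The means were 7.40% ± 8.40 and 0.135% ± 0.0346 (SD, n = 9 each), a difference of -7.27 points and -2.22 ± 0.48 (SE) on the log2 odds scale (limma, adjusted p = 0.0416).

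The call held in 5 of 18 fits with 1 library left out, namely without wildtype replicate 2, without each replicate of MYCN-/SNRPD3- siRNA #1 and without MYCN-/SNRPD3- siRNA #2 replicate 3. Without any of the other 13 libraries the adjusted p (limma) was between 0.0697 and 0.0862. The call was also lost with an offset of 0.05 (adjusted p = 0.0577) and without transformation (0.141). Another unannotated junction, from exon 2 to 69918252 inside intron 2, was at 9.43%, 8.91% and 10.1% in MYCN+/SNRPD3- siRNA #2 and at 7.12% in MYCN+/SNRPD3+ replicate 1. It was at 5.81% in MYCN-/SNRPD3- siRNA #2 replicate 1 and at most 0.158% in the other 13 libraries. It was not called in any comparison, its MYCN difference being 3.25 points (limma, adjusted p = 0.289).

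**Figure D3:**
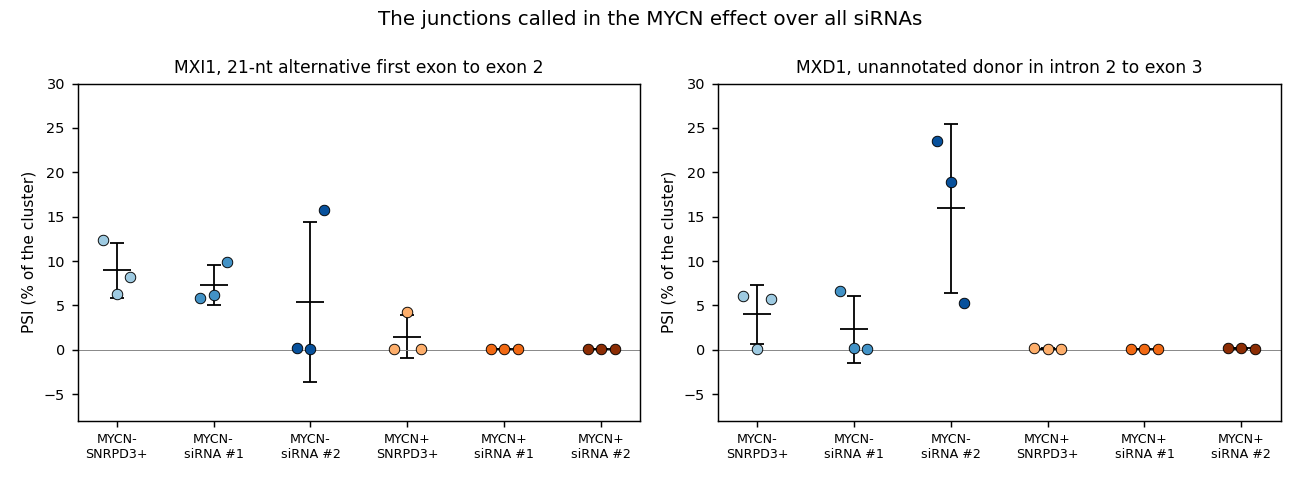
PSI (% of the cluster) of the 2 called junctions, MXI1 (left) and MXD1 (right), in the 18 libraries by group, with the group mean (bar) and SD of 3 replicates. All MYCN+ libraries but MYCN+/SNRPD3+ replicate 2 in MXI1 (4.28%) are below 0.2%, and some MYCN- libraries are as low.

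The 4 MXD-family genes share a gene structure in which exon 3 is very short, 30 nt in each. It is shown because it is a cassette exon in MXI1 and in MXD3, with capitals for the 16 bases that are the same in all 4 genes.
MXI1, chr10:110244828-110244857, plus strand: aTCtacaCACAAtGAgcTgGAaAAGaatcG
MXD1, chr2:69921736-69921765, plus strand: aTCaactCACAAtGAaaTgGAgAAGaataG
MXD3, chr5:177310668-177310697, minus strand: gTCagtgCACAAtGAacTgGAgAAGcgcaG
MXD4, chr4:2257982-2258011, minus strand: gTCttcaCACAAcGAgcTaGAaAAGcacaG
Pairs of genes were identical at 19 to 24 of the 30 bases, with MXI1 and MXD1 the closest (80.0%). The exon was nearly always kept. In MXI1 its inclusion, the mean PSI of the flanking introns over that mean plus the skipping intron, averaged 93.8%, and in MXD3 99%. In MXD1 and MXD4 no skipping of it was listed as a cassette.

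Inclusion of the MXI1 exon 3 was 94.9% ± 1.91 without and 92.6% ± 2.01 with MYCN (SD, n = 9 each). That difference, -2.23 points, did not pass the test over the 18508 cassettes tested (limma, adjusted p = 0.211). A later 5′ splice site lengthens the exon to 46 nt, and the intron leaving it averaged only 0.702% of the cluster. Its cassette value (87.6%) mostly counts the acceptor that the 30-nt form shares, and is not a measure of the longer form.

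MXD3 (chr5:177301461-177312757, ENSG00000213347.11) is an MXD repressor found in cycling cells. Its intron 1, chr5:177311484-177311761, had the third smallest p in the MYCN effect and was not called (limma, adjusted p = 0.0641). PSI was 10.9%, 10.0% and 8.53% in wildtype, 10.4%, 7.58% and 6.03% with siRNA #1, and 11%, 7.49% and 11.8% with siRNA #2. With MYCN it was 7.83%, 5.03% and 11.1%, then 4.45%, 1.59% and 4.68% with siRNA #1 and 5.62%, 3.92% and 4.0% with siRNA #2. Only MYCN+/SNRPD3+ replicates 1 and 3 reached the MYCN- range.

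The cluster of this intron also held 8 introns not assigned to MXD3, of the neighbouring gene LMAN2, tied to it by an unannotated junction from 177311484 to 177334284. MXD3 introns made up 1.61% to 11.8% of that cluster. The PSI of MXD3 intron 1 is therefore a share of reads from both genes, and its difference of -3.94 points with MYCN cannot be told apart from a difference in the level of either gene. With knockdown it differed by -2.35 points (limma, adjusted p = 0.564).

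The last intron of MXD3 has alternative 3′ splice sites, at 177307703 in MXD3-203 (MANE Select) and at 177307195 in MXD3-202. The MXD3-202 junction, named here after its values were seen, stood out with siRNA #1. It was 0.2%, 13.6% and 96.8% in MYCN-/SNRPD3- siRNA #1 and 0.309%, 46.7% and 17.5% in MYCN+/SNRPD3- siRNA #1. It was 11.8% in MYCN-/SNRPD3- siRNA #2 replicate 1 and at most 0.334% in the other 11 libraries. Over both siRNAs the knockdown difference was 15.4 points, the widest of any network intron, and did not pass the test (limma, adjusted p = 0.724).

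Further values of MXD3 carry a limit from its neighbours. Of its 19 introns, 8 had a splice site that is also one of RAB24 and 1 a site of LMAN2. A RAB24 pair, chr5:177303320-177303407 and chr5:177303320-177303411, held only 11 distinct values over the 18 libraries, and 7 libraries shared the values 87.7% and 12.3%. This pair had the smallest p of the interaction among network introns (limma, adjusted p = 0.999). Both its introns are in the counts at an unadjusted p under 0.05 given above for the interaction and for MYCN alone. They are also in those for each siRNA with MYCN repressed. Nothing further was read from the values of this pair.

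MXD4 (chr4:2247432-2262109, ENSG00000123933.17), a repressor of differentiated cells, had its main junction lower on average with MYCN, without a call. Its intron 3, chr4:2252522-2257982 in MXD4-201, went from 80.1% ± 6.90 to 68.6% ± 12.6 with MYCN (SD, n = 9 each; -11.5 points; limma, adjusted p = 0.331). The alternative junction chr4:2255294-2257982, the last intron of MXD4-202, was 6.45% ± 3.43 without and 11.4% ± 4.65 with MYCN, 4.92 points apart, without passing the test (limma, adjusted p = 0.231). It reached 17.3% and 17.9% in MYCN+/SNRPD3- siRNA #1 replicates 1 and 2, 16.1% in MYCN+/SNRPD3+ replicate 1 and 14.7% in wildtype replicate 3, so the sets overlapped. A 197-nt exon between these ends, chr4:2255155-2255351, was included at 6.16% on average, and up to 20.0% in MYCN+/SNRPD3- siRNA #1 replicate 1. The transcript that holds it, MXD4-204, is annotated for nonsense-mediated decay. Its inclusion differed by 3.78 points with MYCN (limma, adjusted p = 0.420).

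MNT (chr17:2384073-2401104, ENSG00000070444.15) is a widely expressed MAX partner that opposes MYC in growing cells. The network intron with the smallest p for knockdown was an unannotated MNT junction, chr17:2388049-2392344, which leaves a donor inside the annotated intron 4 (chr17:2388049-2394043) on the minus strand. Its PSI was 4.32%, 5.74% and 5.08% in wildtype, 4.67%, 3.04% and 2.96% with siRNA #1 and 0.0426%, 1.86% and 2.5% with siRNA #2. With MYCN it was 2.69%, 2.32% and 2.10%, then 1.51%, 0.0367% and 1.03% with siRNA #1 and 1.75%, 1.45% and 1.63% with siRNA #2.

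Within each MYCN state the control libraries were at or above the knockdown libraries except for 1 wildtype value (4.32%) below 1 siRNA #1 value (4.67%). The knockdown difference was -1.83 points (-0.83 ± 0.25 SE, log2 odds; limma, adjusted p = 0.360) and the MYCN difference -1.74 points (limma, adjusted p = 0.229). The annotated intron 4 took 72.5% ± 7.64 of the cluster with MYCN and 68.3% ± 9.38 without (SD, n = 9 each). The cluster also held 2 introns of the neighbouring METTL16, and the MNT introns made up 84.2% to 99.9% of it.

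MAX (chr14:65006174-65102695, ENSG00000125952.21) had all its 7 introns tested, and its splice choices were tight between replicates. The best known choice is a 27-nt exon that keeps the reading frame. MAX-205 (MANE Select, 160 codons) includes it and MAX-204 (151 codons) skips it, and both proteins keep the whole dimerisation domain. The exon, chr14:65101546-65101572, minus strand, is printed because it is what separates these forms.
MAX 27-nt exon: gaagagcaaccgaggtttcaatctgcg

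Inclusion of the exon was 43.9%, 43.7% and 46.2% in wildtype, 40.4%, 40.7% and 40.2% with siRNA #1 and 43.7%, 46.9% and 48.0% with siRNA #2. With MYCN it was 43.6%, 41.4% and 41.0%, then 36.3%, 41.6% and 33.8% with siRNA #1 and 38.4%, 42.2% and 39.0% with siRNA #2. Skipping was therefore the more frequent choice in all 18 libraries. Inclusion was 43.7% ± 2.89 without and 39.7% ± 3.15 with MYCN (SD, n = 9 each), with overlapping ranges, and the difference of -4.03 points did not pass the test (limma, adjusted p = 0.191).

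With MYCN repressed, the siRNA #1 libraries (40.2% to 40.7%) lay below and the siRNA #2 libraries (43.7% to 48.0%) at or above the lower wildtype value. The skipping junction itself, chr14:65093815-65102304, took 39.2% ± 2.80 of its cluster without and 43.2% ± 3.27 with MYCN, without a call (limma, adjusted p = 0.206), and differed by 2.44 points with knockdown (limma, adjusted p = 0.760). The intron between the 27-nt exon and the next exon followed the shared library axis closely (r = 0.924), while the skipping junction had r = -0.600.

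The other MAX choices concern its 3′ end. Splicing to the alternative last exon of MAX-201, chr14:65084299-65093708, gives a shortened protein of 96 codons and took 6.14% to 12.5% of its cluster, with 8.16% ± 1.85 without and 9.19% ± 1.51 with MYCN (SD, n = 9 each; limma, adjusted p = 0.590). The smallest p of a MAX intron in the MYCN effect was that of the final intron, chr14:65076663-65077913, and its alternative partner chr14:65077428-65077913, which together fill 1 cluster. The alternative partner is annotated in MAX-206, a 103-codon form marked for nonsense-mediated decay. MAX-206 is the first matching transcript by name, so this junction need not mark that form alone. The junction was low everywhere. Without MYCN its PSI ran from 0.811% over a median of 1.52% to 2.06%, and with MYCN from 0.236% over 0.776% to 1.33%. The means were 1.47% ± 0.384 and 0.790% ± 0.331 (SD, n = 9 each). The rarer junction was thus 0.680 points lower with MYCN, and this was not called (limma, adjusted p = 0.144).

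MGA (chr15:41621134-41773081, ENSG00000174197.19), the giant partner of MAX that belongs to a Polycomb complex, gave 27 tested introns and no call. Only 1 of them had an unadjusted p under 0.05 for MYCN, chr15:41736698-41740053, which was at 11.5% ± 5.14 without and 7.08% ± 2.10 with MYCN (SD, n = 9 each; limma, adjusted p = 0.403), without passing the test. A 627-nt coding exon, chr15:41742546-41743172, present in MGA-214 and skipped in MGA-207, was included at 75.4% on average. The libraries ranged from 55.2% to 86.8%, both extremes being MYCN- knockdown libraries. Inclusion was 75.5% ± 9.26 without and 75.4% ± 5.15 with MYCN (SD, n = 9 each; limma, adjusted p = 0.943). With knockdown it differed by -4.19 points (limma, adjusted p = 0.661). A 1131-nt exon, chr15:41668828-41669958, was included at 96.2%.

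MLX (chr17:42567072-42573239, ENSG00000108788.12) is made in forms that differ in the N-terminal part and are thought to differ in their place in the cell. The MANE form MLX-203 has 244 codons, MLX-202, which skips a 90-nt exon, has 214, and MLX-201, which uses a longer first exon, has 298. The 90-nt exon, chr17:42568470-42568559, plus strand, keeps the frame.
MLX 90-nt exon: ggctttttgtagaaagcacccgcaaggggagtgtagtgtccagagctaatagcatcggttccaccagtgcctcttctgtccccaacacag

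Inclusion of this exon was 81.0%, 85.9% and 88.2% in wildtype and stayed between 80.0% and 85.9% with either siRNA when MYCN was repressed. With MYCN and the control siRNA it was 83.1%, 84.3% and 87.6%. The lowest values were in replicate 3 of the MYCN+ knockdown groups, 71.4% with siRNA #1 and 75.2% with siRNA #2, and the other replicates of those groups stood at 80.7% to 86.0%. Neither MYCN (-2.20 points, adjusted p = 0.616) nor knockdown (-3.31 points, adjusted p = 0.481) moved it past the test (limma).

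The choice of the MLX first-exon end, 42567166 in MLX-203 or 42567328 in MLX-201, had an unadjusted p under 0.05 for the interaction. The MLX-201 junction was 7.45%, 6.53% and 7.34% in wildtype, 10.8%, 9.87% and 12.3% with siRNA #1 and 10.9%, 8.69% and 8.57% with siRNA #2. With MYCN it was 9.70%, 10.5% and 10.1%, then 10.7%, 11.4% and 11.8% with siRNA #1 and 9.78%, 8.23% and 6.51% with siRNA #2. All 6 knockdown libraries without MYCN lay above all 3 wildtype libraries. With MYCN the siRNA #1 libraries lay above all 3 controls, while 2 siRNA #2 libraries lay below them and 1 among them. The knockdown difference was 1.36 points (limma, adjusted p = 0.621), and neither it nor the interaction was called by limma. An unannotated junction near the 3′ end of MLX, chr17:42570172-42571547, had the smallest MYCN p of the gene, at 1.71% ± 0.344 without and 2.14% ± 0.604 with MYCN (SD, n = 9 each), without a call.

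MLXIP (chr12:122078756-122147344, ENSG00000175727.15), the glucose sensor that dimerises with MLX, had 15 tested introns, none with an unadjusted p under 0.05 for MYCN or for knockdown. Its smallest p for MYCN was that of chr12:122138295-122138815 (limma, adjusted p = 0.632). Its introns followed the shared library axis instead. Intron 13, chr12:122138295-122138424, was 60.9%, 61.4% and 80.8% in wildtype and 61.7%, 64.0% and 83.0% with siRNA #1 alone, and the other 12 libraries ranged from 57.9% to 77.7%. Over the 18 libraries it went with the MXI1 distal junction (Pearson r = 0.614, Spearman rho = 0.723, and r = 0.591 without the 2 libraries farthest from the MXI1 median), and also among the 9 MYCN- (r = 0.772) and the 9 MYCN+ libraries (r = 0.564). This is a description over libraries of 1 cell line, whose depth is unknown, and no test was made of it.

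**Figure D4:**
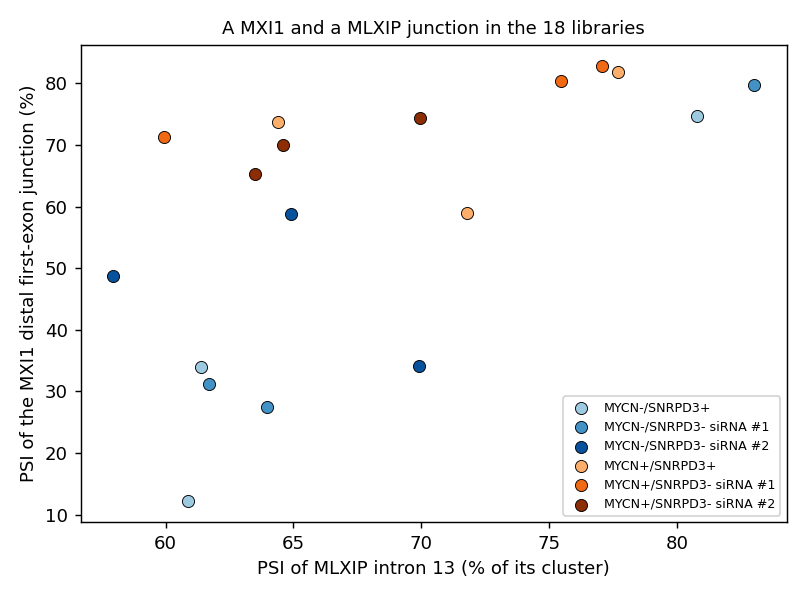
PSI of MLXIP intron 13 (x axis, % of its cluster) against PSI of the MXI1 distal first-exon junction (y axis, %) in the 18 libraries, coloured by group. Wildtype replicate 3 and MYCN-/SNRPD3- siRNA #1 replicate 3 are at the right (80.8% and 83.0%), with MXI1 values of 74.7% and 79.8% like those of the MYCN+ libraries.

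BIN1 (chr2:127048027-127107288, ENSG00000136717.15) has the most elaborate exon choice of the network. Exon 13, of 90 nt (chr2:127051154-127051243), encodes part of the MYC-binding region. The 129-nt exon ahead of it (chr2:127057473-127057601), known as exon 12A, is the first of the clathrin-binding region and has been linked to forms that fail to restrain MYC. A 45-nt exon (chr2:127060596-127060640) encodes the phosphoinositide-binding stretch of muscle, and a 93-nt exon (chr2:127068163-127068255) is exon 7 of MANE transcript BIN1-202. Each keeps the reading frame. The first 2 are printed as the exons on which MYC binding turns, minus strand.
BIN1 exon 12A, 129 nt: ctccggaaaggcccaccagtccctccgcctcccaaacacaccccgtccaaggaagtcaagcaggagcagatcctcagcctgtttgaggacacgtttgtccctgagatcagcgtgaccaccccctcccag
BIN1 exon 13, 90 nt: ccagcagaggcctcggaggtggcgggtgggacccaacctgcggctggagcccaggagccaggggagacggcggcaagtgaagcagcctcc

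SHEP.tet21n cells made mostly BIN1 with exon 12A in every group. Its inclusion was 94.8% on average, from 89.6% to 99.9%, and differed by 0.732 points with MYCN and 0.540 with knockdown (limma, adjusted p = 0.877 and 0.992). Read at the upstream splice site alone, where all junctions that pass over it are counted, it was 86.4%. The muscle exon and exon 7 were rarely included, at 1.33% and 1.03% on average. The junction that skips both exon 12A and exon 13, chr2:127050912-127059011, had the smallest knockdown p of the gene, at 1.17 points higher with knockdown and not called (limma, adjusted p = 0.584).

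Exon 13 was included at 83.7% by the annotated junctions. Values were 85.8%, 91.7% and 96.0% in wildtype, 86.1%, 88.7% and 74.1% with siRNA #1 and 79.4%, 88.0% and 79.4% with siRNA #2. With MYCN they were 81.4%, 89.6% and 80.4%, then 90.2%, 81.9% and 74.1% with siRNA #1 and 84.0%, 83.1% and 72.1% with siRNA #2. The control libraries averaged 87.5% ± 6.08 (SD, n = 6) and the knockdown libraries 81.7% ± 6.08 (SD, n = 12), with overlap. The difference of -5.74 points did not pass the test (limma, adjusted p = 0.341).

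That measure leaves out an unannotated junction, chr2:127050912-127057473, which joins exon 12A directly to the exon after exon 13. It took 10.2% to 29.1% of the BIN1 cluster. Counted at the splice site at 127050912, exon 13 was included at 57.8% on average, with 61.4% ± 10.7 without and 54.2% ± 7.88 with MYCN (SD, n = 9 each). The site measure was added after the values were seen and was not tested. It was lowest, at 40.5%, in MYCN-/SNRPD3- siRNA #1 replicate 3, and the unannotated junction followed the shared library axis (r = 0.898). The junction itself differed by 4.0 points with MYCN (limma, adjusted p = 0.675).

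Of the 14 cassettes of annotated introns in the network genes, 13 were tested and none was called by limma for MYCN, for knockdown or for the interaction. At an unadjusted p under 0.05 stood 3, 0 and 1 of the 13, against 21.3%, 15.3% and 4.14% of all cassettes tested. Over the whole series 4.85% of cassettes were called for MYCN, 156 with more and 741 with less inclusion, and 0% for knockdown and 0% for the interaction. Of the 13, the inclusion of 6 was higher and of 7 lower with MYCN. The 1 with an unadjusted p under 0.05 for the interaction was a 92-nt exon of MLXIP, chr12:122132292-122132383, at 98.6% on average (limma, adjusted p = 0.9995).

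In other genes of the pathway the share of introns called for MYCN was close to that of the network genes (2 of 115). Of 45 listed genes, 40 had tested introns (617), and 11 introns in 7 genes were called for MYCN, 6 higher and 5 lower (limma; 1.78%, against 1.23% in the whole table). KAT2A, a histone acetyltransferase recruited by MYC, used its junction chr17:42118403-42119245 more with MYCN, by 13.1 points (adjusted p = 0.0200). USF2, another E-box factor, moved by 14.2 points to chr19:35269699-35270447 (adjusted p = 0.0436). HDAC1, NCOR1, YAF2 and CBX3 had calls of smaller size, from 0.611 to 3.50 points.

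Knockdown called 2 introns of the list, both of SKP2 (limma; 0.324% of the list, against 0.0242% of all introns). SKP2 encodes the substrate receptor of an SCF ubiquitin ligase that targets MYC and p27. Its junction chr5:36177292-36183840 was 25.4% in wildtype and 31.8% in MYCN+/SNRPD3+ on average, 14.1 points higher with knockdown (adjusted p = 0.0149). Its partner chr5:36177292-36181818 was 13.4 points lower. These junctions share the splice site at 36177292, so both calls describe the same choice. The USF1 calls below are likewise a pair moving in opposite directions. The list was chosen with earlier results of these data known, so its shares are not independent of them. Against wildtype, MYCN with siRNA #1 called 5 introns of USF1, SKP2 and HUWE1 (0.81%, against 0.278% of all introns), and MYCN with siRNA #2 called 4 of USF1 and SKP2 (0.648%, against 0.11%). The interaction and the other pairwise comparisons called 0 introns of the list by limma, against 0.0105% to 0.0543% of all introns. At an unadjusted p under 0.05 stood 16 to 38 of the 617, against 3.98% to 7.25% of all introns.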

How the data were processed

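RNA from 18 cultures of SHEP.tet21n cells (6 groups of 3 independent biological replicates) was sequenced as stranded, paired-end mRNA libraries. Per the study's methods and processing notes, the authors aligned reads with STAR 2.5.0a, used SAMtools 1.3.1, counted split reads with leafcutter and annotated with GENCODE v28. The deposited value is PSI, a fraction from 0 to 1 of each intron within its cluster, printed here as a percent. No read counts were used, so depth is unknown and no counting intervals are given. A table of the authors' own comparisons (FDR and delta PSI) was not used. Introns were matched to GENCODE v44 exon boundaries. In the main test, limma 3.58.1 (R 4.3.3) was fitted to log2((PSI + 0.01)/(1 - PSI + 0.01)) over all 6 groups for introns with a mean PSI of 1% to 99%, with Benjamini-Hochberg adjustment over all introns and a threshold of 0.05, and the same way for cassette inclusion. The fit was run on simulated data in which deviations from group means were shuffled separately within each intron. Such shuffling removes the shared library axis, so that run cannot show how the fit behaves in its presence. Named introns were those called, those with the smallest p per gene for MYCN and for knockdown, cassettes with 5% to 95% inclusion, and known splice choices of MAX, BIN1, MLX and MXI1. Members, gene lists and tests were chosen with earlier results of these data known. Same-numbered replicates did not deviate together. Alternatives were other offsets, no transformation, other filters, 2-group fits, a replicate block, leaving out each library and, added after seeing the data, the library axis as a covariate. The values of 1 gene of the pathway list are not reported here.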

Additional observations from a re-analysis of the deposited data

Results flagged for a closer look

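A 79-nt exon on chr5:177302752-177302830 is annotated in both MXD3 and RAB24. It was flagged in a search over named introns and network cassettes, because the knockdown libraries moved in opposite directions in the MYCN states. The search asked that every knockdown library lie on the same side of the control mean within a state, so that evenness was selected for. With MYCN repressed, inclusion in the 6 knockdown libraries exceeded the mean of their controls in every library, by 0.748 points on average. With MYCN expressed it was below the control mean in all 6 libraries, by -0.893 points on average. Inclusion averaged 99.3%, above the range tested, so the difference between the MYCN states was not tested. Reads at this exon cannot be told apart between the genes.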

How the results depend on the processing

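No result changed direction. Only other offsets, no transformation and leaving out a library could have changed it, since the other alternatives leave each difference as it was. The count of 2 network introns called for MYCN fell to 0 with an offset of 0.05, without transformation and with mean PSI limited to 5% to 95%, a range that neither junction reaches. It was 1, the MXD1 junction, with no filter and with a trended, robust variance, where MXI1 had an adjusted p (limma) of 0.0570 and 0.0552. Leaving out 1 library gave 0 to 2 calls, with MNT called without MYCN-/SNRPD3- siRNA #2 replicate 1 (adjusted p = 0.0344) and MXD3 intron 1 called without MYCN+/SNRPD3+ replicate 3 (adjusted p = 0.0468). Fitted on only the 2 groups compared, 2 introns were called for siRNA #1 with MYCN repressed (both of the RAB24 pair) and 2 for MYCN with each siRNA against wildtype. Against wildtype, siRNA #1 also gave 1 call with an offset of 0.05, and leaving out 1 library gave 0 to 1 for either siRNA. Without transformation 1 cassette, the MAX 27-nt exon, was called for MYCN. The shares of all introns or cassettes called under these alternatives are not given here. The counts are therefore not read as above or below background. Over all alternatives but the leave-out fits, 108 of 118 counts stayed at 0 or within 1.5 times their main value, and 10 moved. In the leave-out fits 214 stayed and 20 moved. Every main count but that of the MYCN effect on introns was 0. The tally therefore mostly compares 0 with 0 and says little about the 2 MYCN calls. The cause of these changes was not tested.

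The replicate numbers share no stated origin, and same-numbered libraries did not deviate together (mean correlation 0.00615, from -0.0509 to 0.0638 over 45 pairs). With a replicate block 2 network introns were called for MYCN, MXD1 and MXD3 intron 1 (adjusted p = 0.0343), while MXI1 had 0.0617. With the library axis as a covariate there were 3, MXI1, MXD1 and MXD3 intron 1 (limma, adjusted p = 0.0475 for MXD3). That covariate is made of deviations from group means, so it can change the spread and not the differences. For these fits too the share of all introns called is not given, so the counts are not set against background. Unknown depth limits all values.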
